A study of Homo sapiens with 12 samples.

Results

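MYC, its partner MAX, the FOS proteins (FOS, FOSB, FOSL1 and FOSL2), the JUN proteins (JUN, JUNB and JUND) and EGR1 are transcription factors whose mRNAs were followed here in oral squamous cell carcinoma (OSCC) cells with and without rapamycin. The 10 genes were listed by symbol and matched to their Ensembl identifiers. The rule uses no measured value, but the list was drawn up with earlier results of these data known. They are 10 of the 58302 gene identifiers counted by RNA-seq, and all 10 had enough counts to be among the 15826 genes tested.

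The study treated the established human OSCC cell lines HSC3 and CAL33 with 100 nM rapamycin, an inhibitor of the mTOR kinase used there to induce autophagy, and left control cells untreated. RNA-seq comprised 4 libraries, 2 with rapamycin (rapamycin 1 and 2) and 2 without (control 1 and 2). MeRIP-seq, in which RNA fragments carrying N6-methyladenosine (m6A) are pulled down with an antibody and sequenced beside input RNA, comprised 8 libraries, 1 immunoprecipitated and 1 input for each line with and without rapamycin for 3 days. The labels give no duration for the RNA-seq libraries. No genetic change or other agent is given in the labels for any group.

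The labels of the RNA-seq libraries give HSC3 for both rapamycin libraries and CAL33 for both controls, so that by these labels line and treatment cannot be told apart. In the m6A libraries, number 1 is HSC3 and number 2 is CAL33 in either treatment. Rapamycin 1 and 2 held 18492273 and 18763045 counts and control 1 and 2 held 21653290 and 23763098, of which mitochondrial genes took 6.62%, 7.94%, 5.71% and 7.30%. The counts sorted by number. Over the 15826 genes tested, log2 levels correlated (Pearson's r, with genes not being independent) at 0.966 between rapamycin 1 and control 1 and 0.956 between rapamycin 2 and control 2, against 0.766 between the rapamycin libraries and 0.811 between the controls. Keratin 17, a keratin of squamous epithelium, was at 5.05 CPM in rapamycin 1 and 4.90 in control 1, and at 2119 in rapamycin 2 and 1346 in control 2. TP63, the transcription factor of basal squamous cells, was likewise low in both libraries numbered 1 (13.5 and 19.7 CPM) and high in both numbered 2 (353 and 333). The 10 genes are therefore given for the 2 groups as labelled, for each numbered pair, and for the fit that takes the replicate number as its block. The counts and fold changes of the other gene lists are those of the blocked fit. When a library is left out of the fit without the block, the treatments differ in number too, and those values mix both. No source used here says whether the libraries came from separate cultures, so p-values measure the spread between these libraries.

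MYC binds DNA as a dimer with MAX and drives genes of ribosome building, nucleotide synthesis and growth. FOS and JUN proteins pair through leucine zippers to form the AP-1 factor, and JUN proteins can also pair with each other, whereas FOS proteins need a JUN partner. FOS, FOSB, JUN, JUNB, EGR1 and MYC are classic immediate-early or early response genes, which are switched on within minutes to hours of a growth or stress signal from mRNAs that decay fast. AP-1 and MYC are both known for their part in squamous cell carcinoma.

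Promoters of immediate-early genes are known to combine core elements with sites for signal-responsive factors. Of the 10 genes 8 were matched in the RefSeq promoter set (GRCh38.p14, 250 bases before to 50 after each gene start, 35116 windows). The lines below show 30 bases each, 5′ to 3′ on the strand of the gene, chosen to show how these windows differ, with the motif in capitals. For EGR1 these are the CArG boxes, the sites of serum response factor, and for FOS, FOSB and JUNB the TATAAA element. For JUN a variant of the AP-1 site is shown, for JUND the cyclic AMP response element, and for FOSL2 an AP-1 site.
EGR1 CArG box (chr5:138465364-138465393, plus strand): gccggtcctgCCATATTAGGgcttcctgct
EGR1 CArG box (chr5:138465386-138465415, plus strand): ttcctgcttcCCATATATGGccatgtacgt
FOS TATAAA (chr14:75278783-75278812, plus strand): taaaacgcttgtTATAAAagcagtggctgc
FOSB TATAAA (chr19:45467954-45467983, plus strand): gggtcccgggcaTATAAAtacaggctggcg
JUNB TATAAA (chr19:12791443-12791472, plus strand): tgactagcgcggTATAAAggcgtgtggctc
JUN TGACATCA (chr1:58784096-58784125, minus strand): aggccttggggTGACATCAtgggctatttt
JUND TGACGTCA (chr19:18281804-18281833, minus strand): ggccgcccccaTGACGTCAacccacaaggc
FOSL2 TGACTCA (chr2:28392851-28392880, plus strand): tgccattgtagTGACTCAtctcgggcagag

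Both strands were searched, and the motifs were chosen with the sequences in view, so the matches are a description. Sites more than 250 bases before a gene start were outside the search, so a motif not found here may still lie further upstream. A CArG box was found in 1.29% of all windows and, among the matched genes, in EGR1. TATAAA was found in 11.5% of all windows and in FOS, FOSB and JUNB. The AP-1 letters TGACTCA were in 4.95% of windows and in FOSL2, TGACATCA in 2.61% and in JUN, and TGACGTCA in 1.85% and in JUND. The shorter TGACG, which is contained in TGACGTCA, was in 24.6% of windows and in 7 of the 8 matched genes, MAX being the exception. The E-box CACGTG, the letters MYC and MAX are known to bind, was in 7.26% of windows and in none of the 8 genes.

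In the RNA-seq libraries, MYC, FOS, FOSB and JUNB mRNA rose with rapamycin in the fit with the replicate block, by 2.26-, 3.52-, 3.09- and 3.33-fold. None of the 10 genes fell. MAX, FOSL1, FOSL2, JUN, JUND and EGR1 did not pass the test. Without the block, edgeR's quasi-likelihood test called none of the 10 genes, and it called none (0%) of the 15826 genes (adjusted p = 0.9997 for each of the 10, Benjamini-Hochberg). At an unadjusted p under 0.05 that test had 446 genes, with FOSB and JUNB among them. No gene of the other lists below passed edgeR's test without the block either. DESeq2 without the block called 42 of all genes tested, with JUNB (adjusted p = 0.00175) the only 1 of the 10. In the other lists it called 2 MYC targets, 1 heat shock gene and 1 other AP-1 protein. With the block, 4.65% of the genes tested were higher and 3.5% were lower with rapamycin, against 4 and 0 of the 10. In 6 of the 10 genes both rapamycin libraries lay above both controls, a pattern held by 15% of all genes tested, and in none did both lie below, which 16.5% of all genes did. The median log2 fold change with the block was 0.97 over the 10 genes and 0.05 over all genes tested. The blocked fit leaves 1 residual degree of freedom for each gene and borrows its estimate of the spread from all genes.

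**Figure D1:**
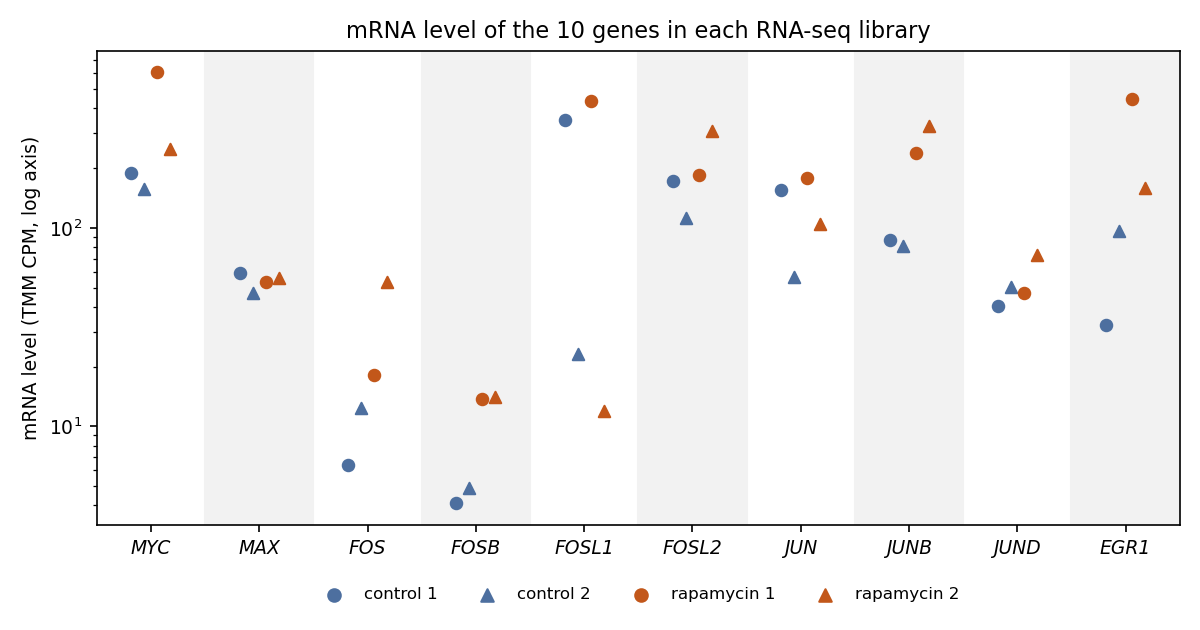
mRNA level of each of the 10 genes in the 4 RNA-seq libraries, in TMM-scaled CPM on a log axis, with circles for number 1, triangles for number 2, and 1 point per library. Both rapamycin points lie above both control points for MYC, FOS, FOSB, FOSL2, JUNB and EGR1, and FOSL1 separates the numbers and not the treatments.

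MYC (ENSG00000136997, chr8:127735434-127742951) was at 608 CPM in rapamycin 1 and 250 in rapamycin 2, against 188 in control 1 and 158 in control 2 (CPM are counts scaled by edgeR to a common library size after TMM correction, and gene positions are those of RefSeq on GRCh38.p14). The controls lay close together, both rapamycin libraries were above them, and rapamycin 1 stood highest. The group means were 429 ± 253 with rapamycin and 173 ± 21.8 in controls (SD, n = 2), and the log2 fold change was 1.31 (SE 0.54, adjusted p = 0.9997 from edgeR). With the block it was 1.18 (SE 0.28, adjusted p = 0.0119). The pair numbered 1 differed by 1.69 on the log2 scale and the pair numbered 2 by 0.66. MAX (ENSG00000125952, chr14:65006101-65102695), the obligate partner of MYC, was at 53.4, 55.6, 59.1 and 46.8 CPM in rapamycin 1, rapamycin 2, control 1 and control 2. The groups overlapped, and MAX kept within a narrow range. Its log2 fold change was 0.04 (SE 0.30) without the block and 0.05 (SE 0.28, adjusted p = 0.930) with it, and the pairs differed by −0.14 and 0.25.

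Other proteins that pair with MAX or share its network, such as the MXD repressors, were listed as 11 genes, of which 10 were tested and MYCN was too low. With the block 2 of the 10 rose (against 4.65% of all genes tested), none fell (3.5% of all), and 8 did not pass. The median log2 fold change was 0.68, against 0.05 over all genes, and without the block it was 0.36 when rapamycin 2 was left out. DESeq2 with the block called 1 gene of this list. MXI1, a repressor that competes with MYC for MAX, was at 56.0 and 51.3 CPM with rapamycin and at 22.8 and 11.8 in controls. Both rapamycin libraries were above both controls, and the log2 fold change with the block was 1.71 (SE 0.31, adjusted p = 0.00176). MYCL, a relative of MYC, was at 6.89 and 12.5 CPM with rapamycin and 3.46 and 1.06 in controls, with a log2 fold change of 2.22 with the block (SE 0.60, adjusted p = 0.0322).

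All 21 known MYC target genes listed were tested. With the block 10 fell (against 3.5% of all genes tested), none rose (4.65% of all) and 11 did not pass. Their median log2 fold change was −1.16, and 19 of the 21 were lower with rapamycin in both numbered pairs, as were 5034 of all 15826 genes tested. Without the block the median was −0.62 when rapamycin 2 was left out and −1.60 when rapamycin 1 was. LDHA, which makes lactate from pyruvate, was at 484 and 604 CPM with rapamycin against 1656 and 1899 in controls. All rapamycin values lay far below the controls, and the log2 fold change was −1.71 (SE 0.27, adjusted p = 0.000485 with the block). SRM, the spermidine synthase, was at 70.2 and 31.9 CPM against 147 and 148, a log2 fold change of −1.63 (SE 0.29, adjusted p = 0.00207). The others that fell, named after their values were seen, were NCL, CAD, NOP16, HSPD1, BOP1, PES1, RRS1 and MRTO4, and they are known for ribosome assembly, apart from CAD in pyrimidine synthesis and the mitochondrial chaperone HSPD1. ODC1, a target by which MYC raises polyamine synthesis, was at 498 and 41.9 CPM with rapamycin and 314 and 142 in controls, so its pairs went in opposite directions (0.67 and −1.76 on the log2 scale).

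Genes whose products govern the stability of the MYC and JUN proteins were mixed. Of 13 tested, 1 rose, 2 fell and 10 did not pass, with a median of −0.05. With the block, 4.65% of all genes tested rose and 3.5% fell. PIM1, a kinase known to stabilise MYC, was at 137 and 86.7 CPM with rapamycin and 43.1 and 11.8 in controls, with a log2 fold change of 2.26 with the block (SE 0.31, adjusted p = 0.000278). AURKA, a kinase that shields MYC proteins from degradation, was at 74.9 and 77.7 CPM against 269 and 131, a log2 fold change of −1.30 (SE 0.28, adjusted p = 0.00722). SKP2, a ubiquitin ligase subunit that acts on MYC, was at 32.2 and 38.2 CPM against 64.2 and 93.7, a log2 fold change of −1.15 (SE 0.28, adjusted p = 0.0108). FBXW7, the ligase subunit best known for degrading MYC and JUN, was at 25.6 and 18.5 CPM with rapamycin and 22.7 and 19.9 in controls, and its groups overlapped.

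Among the FOS proteins, FOS and FOSB rose with the block and FOSL1 and FOSL2 did not pass. FOS (ENSG00000170345, chr14:75278828-75282230) was at 18.1 CPM in rapamycin 1 and 53.6 in rapamycin 2, against 6.37 in control 1 and 12.4 in control 2. In each treatment the library numbered 2 was the higher, and the groups did not overlap. The means were 35.8 ± 25.1 and 9.38 ± 4.25 (SD, n = 2), and the log2 fold change was 1.93 (SE 0.75) without the block and 1.82 (SE 0.34, adjusted p = 0.00184) with it. The pairs differed by 1.49 and 2.11 on that scale. FOSB (ENSG00000125740, chr19:45467996-45475179), which had the fewest counts of the 10 genes in the control libraries, was at 13.7 and 14.0 CPM with rapamycin and at 4.11 and 4.90 in controls. These values rest on 261, 256, 89 and 116 counts. The libraries of each group lay close together and the groups were well apart, with a log2 fold change of 1.62 (SE 0.50) without the block and 1.63 (SE 0.42, adjusted p = 0.0165) with it. The pairs differed by 1.72 and 1.5.

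FOSL1 (ENSG00000175592, chr11:65892049-65900545), a FOS protein that lacks the strong activation domain of FOS, was at 434 CPM in rapamycin 1 and 349 in control 1, but at 12.0 in rapamycin 2 and 23.1 in control 2. The numbers differed 15.0-fold in the controls and 36.0-fold with rapamycin, and the treatments overlapped. Its log2 fold change was 0.26 (SE 2.01) without the block and −0.29 (SE 0.30, adjusted p = 0.592) with it, and the pairs went in opposite directions (0.32 and −0.94). FOSL2 (ENSG00000075426, chr2:28392858-28417317), the other FOS protein of this kind, was at 185 and 307 CPM with rapamycin and at 173 and 113 in controls. Both rapamycin libraries were above both controls, but rapamycin 1 exceeded control 1 by little (0.09 on the log2 scale) and rapamycin 2 exceeded control 2 by more (1.45). The log2 fold change was 0.78 (SE 0.43) without the block and 0.77 (SE 0.31, adjusted p = 0.136) with it.

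Among the JUN proteins, JUNB rose with the block and JUN and JUND did not pass. JUNB (ENSG00000171223, chr19:12791486-12793315), which often restrains the growth-promoting activity of JUN, was at 238 CPM in rapamycin 1 and 327 in rapamycin 2, against 86.9 in control 1 and 81.0 in control 2. The controls were nearly equal and both rapamycin libraries were far above them. The means were 282 ± 63.3 and 83.9 ± 4.15 (SD, n = 2), and the log2 fold change was 1.75 (SE 0.32) without the block and 1.73 (SE 0.27, adjusted p = 0.000467) with it. The pairs differed by 1.45 and 2.01. JUN (ENSG00000177606, chr1:58780791-58784047) was at 179 CPM in rapamycin 1, 104 in rapamycin 2, 154 in control 1 and 56.7 in control 2. It was higher in the libraries numbered 1, and rapamycin 2 lay below control 1, so the groups overlapped. Its log2 fold change was 0.42 (SE 0.63) without the block and 0.55 (SE 0.26, adjusted p = 0.203) with it, and the pairs differed by 0.21 and 0.88. JUND (ENSG00000130522, chr19:18279694-18281622), which is known for steady expression in resting cells, was at 47.2, 73.2, 40.2 and 50.1 CPM in the same order. The groups overlapped, and the log2 fold change was 0.42 (SE 0.38) without the block and 0.39 (SE 0.28, adjusted p = 0.409) with it, the pairs differing by 0.23 and 0.55.

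The JUN genes have no introns, so their levels can be set beside each other per kilobase of gene (RefSeq lengths of 3257, 1830 and 1929 bases for JUN, JUNB and JUND). In control 1, JUN and JUNB were level, at 47.4 and 47.5 CPM per kilobase, and JUND was at 20.8. In control 2 JUNB led at 44.3, with JUND at 26.0 and JUN at 17.4. With rapamycin JUNB led in either library, at 130 and 179 CPM per kilobase, against 55.0 and 32.0 for JUN and 24.5 and 37.96 for JUND. The order of JUN and JUND thus differed between the libraries numbered 1 and those numbered 2 in both treatments.

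EGR1 (ENSG00000120738, chr5:138465479-138469303), a zinc finger factor induced through serum response factor, was at 443 CPM in rapamycin 1 and 160 in rapamycin 2, against 32.5 in control 1 and 96.0 in control 2. Both rapamycin libraries were above both controls, but the pair numbered 1 differed 13.6-fold and the pair numbered 2 by 1.66-fold. The log2 fold change was 2.23 (SE 0.83) without the block and 2.25 (SE 1.42, adjusted p = 0.553) with it. This was the largest log2 fold change and the largest SE among the 10 genes in the blocked fit. Of 11 genes for serum response factor, its cofactors and other EGR proteins, 10 were tested (EGR4 was too low), 1 rose and none fell, with a median of 0.22. Without the block the median was 0.03 when control 1 was left out and 0.47 when control 2 was. The gene that rose, named after its values were seen, was EGR3, a relative of EGR1, at 2.26 and 2.47 CPM with rapamycin and 0.32 and 0.68 in controls (log2 fold change 2.28 with the block, SE 0.66, adjusted p = 0.0317). It rests on 7 and 16 counts in the controls, and DESeq2 with the block called no gene of this list. In the blocked edgeR fit, 4.65% of all genes tested rose and 3.5% fell. SRF, which encodes serum response factor itself, had a log2 fold change of 0.16 (adjusted p = 0.754 in the same fit).

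The wider family of AP-1 partners and of immediate-early genes held further rises. Of 10 other AP-1 zipper proteins, 3 rose with the block (against 4.65% of all genes tested), none fell (3.5% of all) and 7 did not pass. Their median log2 fold change was 0.80. Without the block the median was 0.25 when rapamycin 1 was left out and 0.30 when control 2 was. ATF3, a stress-induced partner of JUN, was at 65.1 and 45.0 CPM with rapamycin and 11.1 and 6.59 in controls, a log2 fold change of 2.66 (SE 0.32, adjusted p = 1.25e-05 with the block). JDP2, a repressor that dimerises with JUN, was at 61.2 and 49.3 CPM against 11.8 and 19.3, a log2 fold change of 1.86 (SE 0.32, adjusted p = 0.00141). Groups were clearly apart for both genes. The third, MAFK, a small MAF protein named after its values were seen, had a log2 fold change of 0.96 (adjusted p = 0.0272 in the same fit).

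Of 21 other immediate-early genes, 20 were tested (NR4A3 was too low). With the block 12 rose (against 4.65% of all genes tested), none fell (3.5% of all) and 8 did not pass. Their median log2 fold change was 1.35 in either fit, and without the block it was 0.37 when rapamycin 1 was left out and 0.79 when control 2 was. NR4A1, an orphan nuclear receptor, was at 40.2 and 19.4 CPM with rapamycin and 13.9 and 4.73 in controls, and its log2 fold change was 1.78 (SE 0.34, adjusted p = 0.00276 with the block). GADD45B, a stress-response regulator of MAP kinase signalling, was at 33.8 and 34.5 CPM against 18.3 and 5.49, a log2 fold change of 1.75 (SE 0.40, adjusted p = 0.0149). Both genes had non-overlapping groups. The others that rose, named after their values were seen, were IER2, IER3, DUSP1, ZFP36, KLF4, KLF10, CCN1, CCN2, PPP1R15A and HBEGF. The summed level of the list was 4013 and 1565 CPM with rapamycin and 1777 and 813 in controls. CCN1, a matrix protein, was its highest gene in the libraries numbered 1, at 1470 CPM in rapamycin 1 and 386 in control 1. It was at 27.04 CPM in rapamycin 2 and 18.1 in control 2, where MCL1 was highest, at 339.5 and 306.9.

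**Figure D2:**
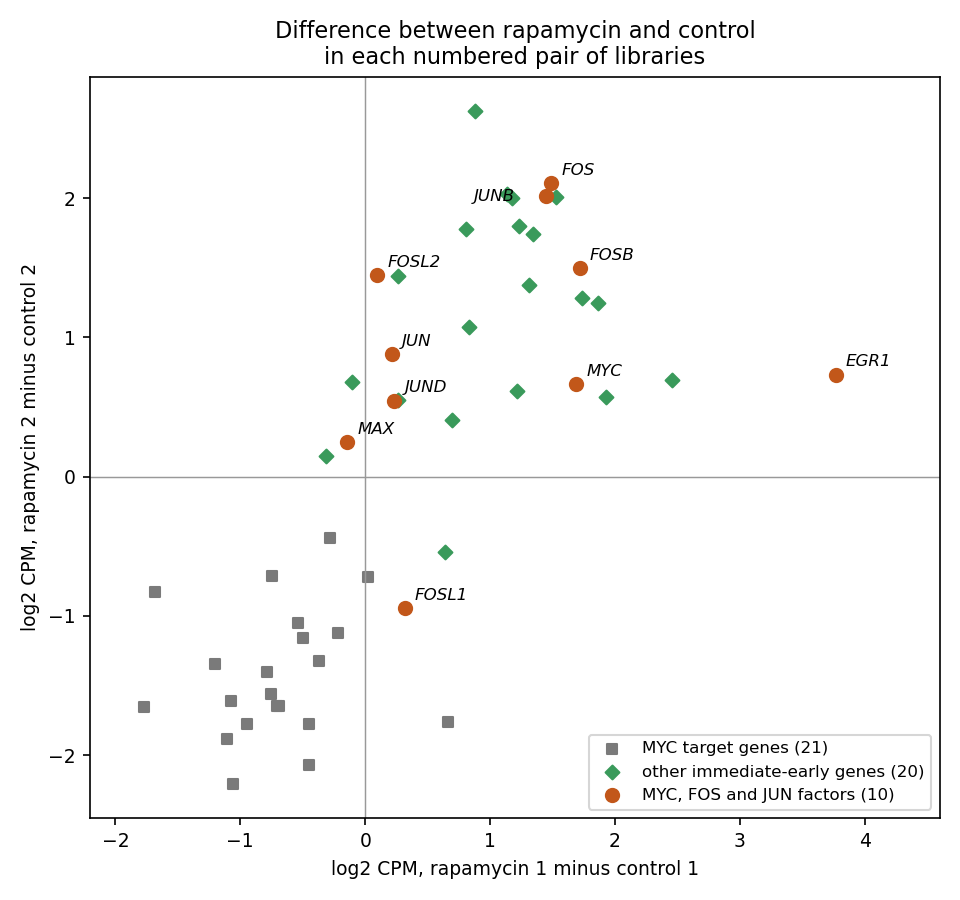
Difference in log2 CPM between rapamycin and control for the pair numbered 1 (horizontal axis) and the pair numbered 2 (vertical axis), with 1 point per gene for the 10 transcription factors, 20 other immediate-early genes and 21 MYC target genes. Of the 10 factors 8 lie in the upper right, higher with rapamycin in both pairs (5472 of all 15826 genes tested), whereas 19 of the 21 MYC targets lie in the lower left (5034 of all).

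Kinases that signal to these genes, and genes that follow those kinases, were listed too. Of 12 genes whose mRNA is known to follow ERK activity, 2 rose, none fell and 10 did not pass, with a median log2 fold change of 0.55. Of the 12, 9 were higher in both pairs. Without the block the median was −0.47 when rapamycin 1 was left out and −0.24 when control 2 was. In those fits the numbers are unbalanced between the treatments, so the medians mix treatment and number. Those that rose were DUSP5, a phosphatase of ERK (1.20, SE 0.25, adjusted p = 0.00549 with the block), and ETV5, an ETS factor (0.99, SE 0.29, adjusted p = 0.0348 in the same fit). DESeq2 with the block called 1 gene of this list. A list of 14 genes held ERK, JNK and p38 kinases, their upstream kinases, and the kinases RPS6KA1 and RPS6KA3. Of these, MAPK3, which encodes ERK1, rose (log2 fold change 0.84, adjusted p = 0.0478 with the block), none fell, and the median was −0.05. This call was lost with DESeq2 and without a filter on low counts, each with the block. Over all genes tested, 4.65% rose and 3.5% fell with the block. Of 7 listed proteins that bind the AU-rich elements of short-lived mRNAs, ZFP36L1, which promotes their decay, rose (1.03, SE 0.27, adjusted p = 0.0174 with the block). None of the 7 fell, and the median was −0.36. ZFP36, of the same family, was counted with the immediate-early genes and rose too (1.3, SE 0.30, adjusted p = 0.0088 in the same fit).

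Of 14 known AP-1 target genes, 12 were tested (MMP3 and MMP13 were too low). With the block 3 rose (against 4.65% of all genes tested), none fell (3.5% of all) and 9 did not pass. The median was 0.32, and DESeq2 with the block called 2 genes of this list. Without the block the median was −1.06 when rapamycin 1 was left out and −0.17 when control 2 was. Those fits also mix treatment and number. PLAU, the urokinase protease, was at 2673 and 597 CPM with rapamycin and 560 and 231 in controls, and its groups did not overlap (log2 fold change 1.81 with the block, SE 0.28, adjusted p = 0.000612). CXCL8, the neutrophil chemokine, was at 46.8 and 166 CPM against 8.17 and 83.9, with overlapping groups, higher with rapamycin in each pair (1.72, SE 0.34, adjusted p = 0.00745 in the same fit). HMOX1, the haem-degrading enzyme, named after its values were seen, had a log2 fold change of 1.32 (adjusted p = 0.0334). MMP1, a collagenase often used to read AP-1 activity, had a log2 fold change of −0.79 (adjusted p = 0.194).

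Immediate-early genes also respond to handling of cells and to stress, and heat shock genes were listed as a readout of protein stress. Of 7 such genes 6 were tested (HSPA6 was too low). With the block none rose (against 4.65% of all genes tested) and 2 fell (3.5% of all), with a median log2 fold change of −0.37. Without the block the median was −1.04 when rapamycin 2 was left out and −0.20 when rapamycin 1 was. HSPH1, a cochaperone, was at 70.4 and 57.3 CPM with rapamycin and 196 and 243 in controls (−1.78, SE 0.27, adjusted p = 0.000342 with the block). HSPA1A was at 51.9 and 50.6 CPM against 199 and 91.7 (−1.40, SE 0.29, adjusted p = 0.00505), but it shares reads with its near-identical copy HSPA1B, so the split of reads between them is uncertain. The time between harvest and lysis is not given in the sources used here, and its part in the levels of the immediate-early genes was not tested.

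The labelled cell type was checked against marker genes. The epithelial markers CDH1, EPCAM, PKP1, DSP and SFN were at 87.4 CPM or more in all 4 libraries, while KRT14 was at 0 in both libraries numbered 1, 1.26 CPM in rapamycin 2 and 9.34 in control 2. KRT5, a basal keratin, was at 6.10, 327, 34.2 and 1703 CPM in rapamycin 1, rapamycin 2, control 1 and control 2 (log2 fold change −2.43 with the block, adjusted p = 6.06e-06), and KRT6A at 0.42, 5.38, 4.39 and 374 (−5.46, adjusted p = 0.00374). With KRT14 they are the 3 of 10 squamous markers that fell with the block (against 3.5% of all genes tested), and none rose (4.65% of all). Their part in the other results was not tested. The 10 markers' summed level was 1443 and 4027 CPM with rapamycin and 1846 and 5838 in controls, with KRT17 the highest by CPM over the 4 libraries. The fibroblast genes COL1A2, COL3A1 and DCN were at 0 in every library, and the 5 fibroblast genes summed to 44.1 and 28.4 CPM with rapamycin and 32.4 and 8.79 in controls, all of it COL1A1 and PDGFRB. The leukocyte gene PTPRC was at 0 in every library, CD3E was at 0.05 CPM in rapamycin 2 and at 0 in the others, and CD68 was at 0.158, 0.165, 0.139 and 0.042 CPM in rapamycin 1, rapamycin 2, control 1 and control 2. The 3 endothelial genes summed to 1.42 and 45.4 CPM with rapamycin and 1.71 and 30.8 in controls. Most of it was CDH5 in rapamycin 2 (41.6 CPM) and control 2 (25.6 CPM), with VWF at 4.35 in control 2. Fewer cells of a kind and less RNA per cell cannot be told apart in such libraries.

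On the m6A side, the authors deposited 1 peak list for each line and treatment, with a fold enrichment of immunoprecipitated RNA over input for each peak. Of the 10 genes 9 had at least 1 peak in at least 1 list, against 35.4% of all genes tested by RNA-seq, and FOS had none. MYC, FOSL2, JUN and JUNB had a peak in all 4 lists, which 572 (3.61%) of all genes did. A peak needs reads, so well expressed genes are more likely to have one, and these shares were not adjusted for level. The lists held peaks on 8 of the 10 genes in HSC3 control cells, 6 in HSC3 with rapamycin, 7 in CAL33 control cells and 5 in CAL33 with rapamycin, where 17.6%, 17.5%, 16.1% and 14.2% of all genes tested had one. In the same order the 10 genes held 11, 12, 12 and 13 peaks, 48 in all, 25 in 3′ UTRs, 16 in coding sequence and 7 in 5′ UTRs. Both CAL33 lists hold overlapping JUND entries at a coding sequence site, and these counts take each entry separately. The 5′ UTR share pooled over the lists was 14.6%, beside 2.98% to 3.8% over all peaks of a single list, but 4 of the 7 peaks were on JUN, 3 of them at 1 overlapping site. With 1 pair of libraries per line and treatment, no difference within a line could be tested, and the effect of rapamycin over both lines together was not tested.

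**Figure D3:**
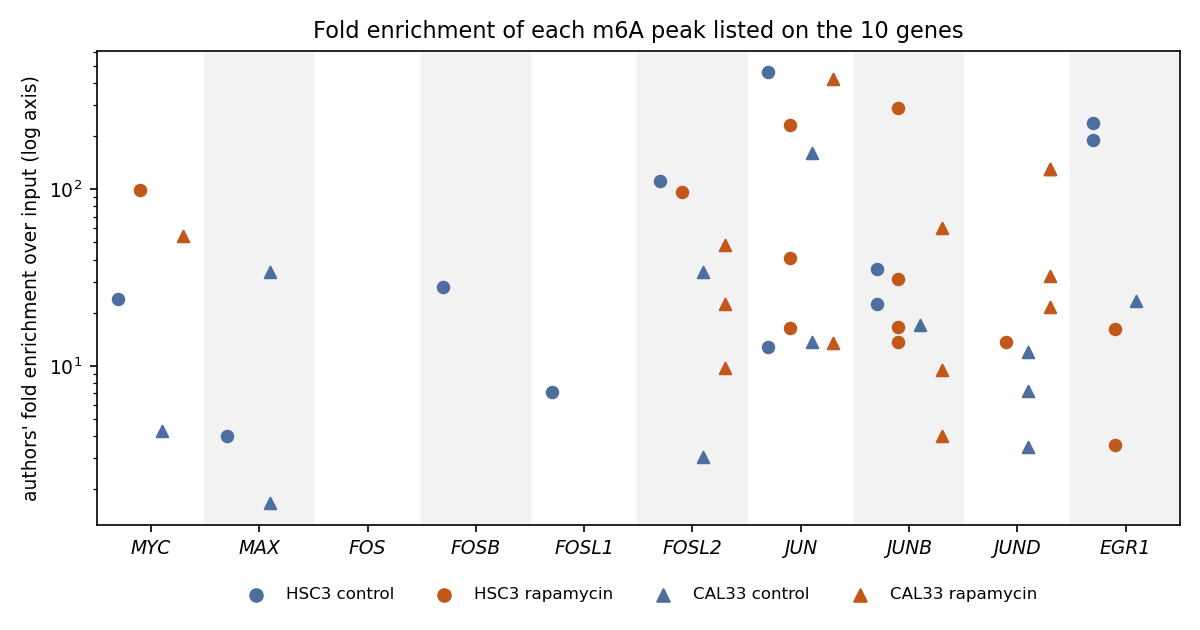
Fold enrichment over input, as deposited by the authors, of each m6A peak listed on the 10 genes (log axis), with circles for HSC3, triangles for CAL33, blue for control and orange for rapamycin. FOS has no point, FOSB and FOSL1 have 1 each, and the JUN peaks of the 3′ UTR reach 460 in HSC3 control and 421 in CAL33 rapamycin cells.

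JUN carried the most enriched peak of the 10 genes, and it was found at the same place in every list. This peak, assigned to the 3′ UTR (chr1:58781628-58782258 on the minus strand in HSC3 control cells, hg38), had a fold enrichment of 460 in HSC3 control and 231 in HSC3 rapamycin cells, and of 160 in CAL33 control and 421 in CAL33 rapamycin cells. With rapamycin it was thus lower in HSC3 and higher in CAL33. It ranked above 96.8%, 95.1%, 80.3% and 98.2% of the peaks of those lists. A weaker peak in the 5′ UTR of JUN had a fold enrichment of 12.8 without and 16.4 with rapamycin in HSC3, and of 13.7 and 13.4 in CAL33. In HSC3 the 5′ UTR peaks overlapped, whereas in CAL33 the control peak lay 800 to 1010 bases from the gene start and the rapamycin peak at 500 to 680. A further JUN peak, in the coding sequence, was listed in HSC3 rapamycin cells alone, with a fold enrichment of 41.0.

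JUNB had more peaks with rapamycin in both lines, 4 against 2 in HSC3 and 3 against 1 in CAL33, and its mRNA rose in the blocked fit. The share of all genes with such a gain was not counted. Over all genes, 3930 control and 3952 rapamycin peaks of HSC3 formed 1110 overlapping pairs. In CAL33, 3625 and 3079 peaks formed 909 pairs, so peaks listed in 1 treatment alone were common in both lines. A peak near the start of the coding sequence was listed with rapamycin and not in controls in either line, at chr19:12791973-12792361 with a fold enrichment of 290 in HSC3 and at chr19:12791973-12792152 with 9.44 in CAL33, so the 2 values differed widely. Toward the 3′ end the JUNB peaks of the lines overlapped in part. In CAL33 a 3′ UTR peak had a fold enrichment of 17.0 in control and 60.2 in rapamycin cells. The HSC3 peaks overlapping that control peak by more than 1 base had 35.2 in control cells (assigned to the coding sequence, 31 bases shared) and 16.6 with rapamycin (240 bases shared). HSC3 also had 3′ UTR peaks of 22.4 in control and 13.7 in rapamycin cells, which shared 180 and 91 bases with the CAL33 rapamycin peak, and 1 and 0 bases with the CAL33 control peak. The other JUNB peaks were a 5′ UTR peak of 31.0 in HSC3 with rapamycin and a coding sequence peak of 3.99 in CAL33 with rapamycin. In HSC3, JUND had no peak without rapamycin and 1 with it, whose false discovery rate was above 0.05. In CAL33 its coding sequence peak was listed as overlapping entries with a fold enrichment of 12.0 and 7.23 in control cells and 131 in rapamycin cells, and its 3′ UTR peak had 3.45 in control and 21.4 in rapamycin cells. A further JUND peak near the start of the gene was listed in CAL33 with rapamycin, with a fold enrichment of 32.2.

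On MYC the peaks of 3 lists overlapped, and that of CAL33 control cells lay elsewhere. In HSC3 the control peak (chr8:127740632-127741137, plus strand) was assigned to the coding sequence with a fold enrichment of 23.8, and the rapamycin peak (chr8:127740810-127741167) to the 3′ UTR with 99.5, although they shared 328 bases. In CAL33 the rapamycin peak (chr8:127740870-127741167) lay at the same 3′ site with a fold enrichment of 54.3. The CAL33 control list held no peak there, and a weak one upstream in the coding sequence (chr8:127738632-127738751) with 4.26. In both lines, then, the 3′ site was listed with a higher value with rapamycin, or only with it.

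FOSL2 carried a peak in its 3′ UTR in all 4 lists, with a fold enrichment of 112 in controls and 96.7 with rapamycin in HSC3, and of 34.0 and 9.67 in CAL33. CAL33 also had a weak 3′ UTR peak of 3.04 in control cells, and with rapamycin a 3′ UTR peak of 22.3 and a 5′ UTR peak of 48.2. On EGR1 the higher values were in control cells. The fold enrichment of its peaks in HSC3 was 236 and 191 in controls and 16.1 and 3.58 with rapamycin (those of 236 and 16.1 overlapped), and CAL33 had 1 peak in control cells (23.4) and none with rapamycin. MAX, FOSB and FOSL1 had peaks in control lists alone. Of all 15826 genes tested, 2823 had peaks in 1 list only, like FOSB and FOSL1, and 1402 in 2 lists, like MAX. How many of those were control lists alone was not counted. MAX had a 3′ UTR peak of 4.01 in HSC3 and 34.0 in CAL33 and a 5′ UTR peak of 1.67 in CAL33, FOSB had a 3′ UTR peak of 28.0 in HSC3, and FOSL1 had a 3′ UTR peak of 7.07 in HSC3.

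**Figure D4:**
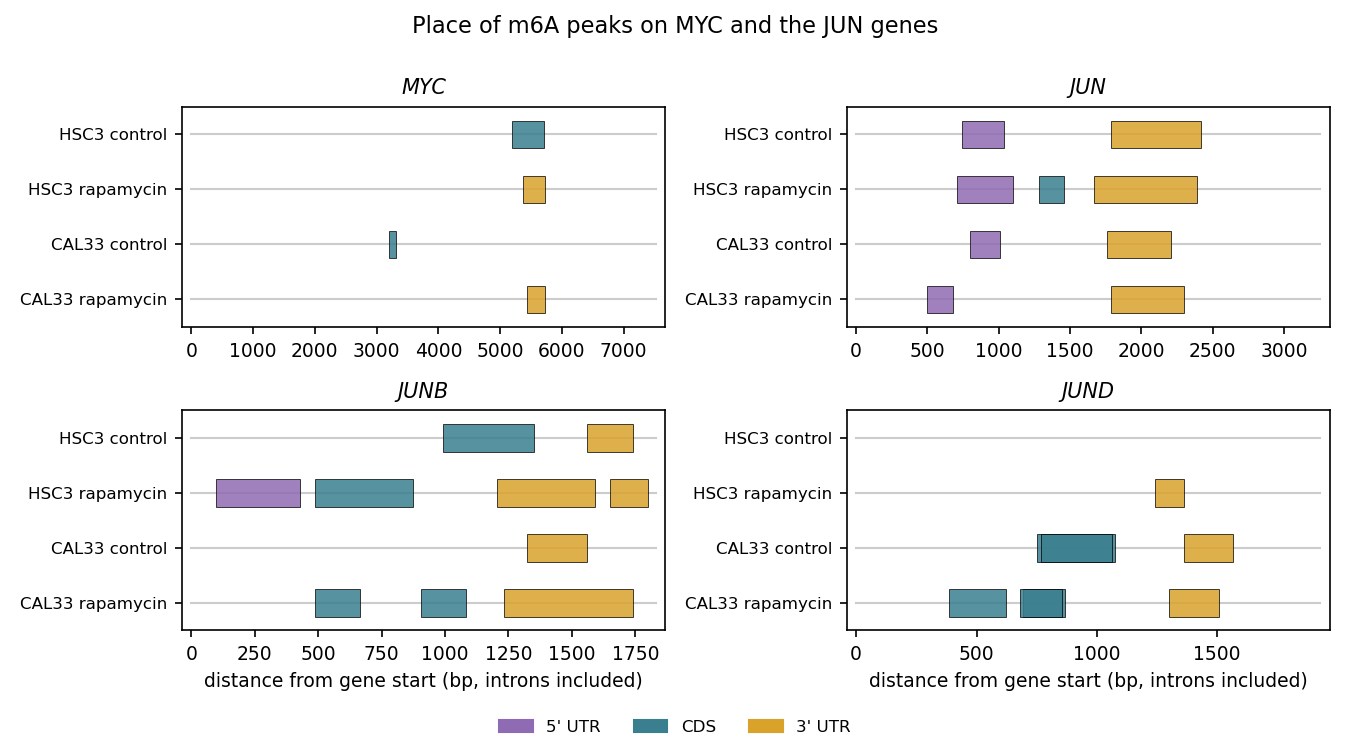
Place of each m6A peak on MYC, JUN, JUNB and JUND, in bases from the gene start, with 1 line per cell line and treatment and colours for the region the authors assigned. The JUN peak at 1669 to 2419 bases is in all 4 lists, while JUNB has 4 peaks in HSC3 and 3 in CAL33 with rapamycin against 2 and 1 in controls.

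These differences can be set beside those of all peaks. Over 1110 overlapping pairs of control and rapamycin peaks in HSC3, the median log2 ratio of fold enrichment was −0.04, and the 10th and 90th percentiles were −3.21 and 3.22. In CAL33 the median was −0.46 over 909 pairs, with percentiles of −3.58 and 2.98. The MYC ratio of HSC3 (2.06), the JUN 3′ UTR ratios (−0.99 in HSC3 and 1.40 in CAL33) and the JUNB 3′ UTR ratios (−0.71 in HSC3 and 1.82 in CAL33, whose control peaks shared 1 base) lie within those ranges, and the EGR1 ratio of HSC3 (−3.87) and the JUND coding sequence ratios of CAL33 (3.45 and 4.18, which share 1 rapamycin peak) lie outside them. Of the 13 pairs on the 10 genes these 3 lie outside, and the others, among them FOSL2 (−0.21 in HSC3 and −1.81 in CAL33) and the JUND 3′ UTR (2.63), lie inside. By construction 20% of all pairs lie outside the percentiles.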

How the data were processed

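RNA-seq comprised 4 libraries and MeRIP-seq 8, from which the authors deposited 1 table of unnormalized gene counts and 4 peak lists. The lists hold, per the file headers, the fold enrichment over input (a ratio) of each peak with its p-value, and the log10 of that p-value and of the false discovery rate, called on each pair of libraries separately. The submitters' processing notes name hg38, cutadapt 2.5, HISAT2 2.1.0, featureCounts 1.6.3 and HOMER 4.10.4, without their roles, while the count table is titled as HTSeq output. Use of strand in counting is not given in the sources used here.

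Symbols were found for 57532 of 58302 identifiers (98.7%). The analysis of the counts used edgeR 4.0.16 under R 4.3.3 (filterByExpr, TMM, and the quasi-likelihood test with Benjamini-Hochberg adjustment at 0.05). CPM and pair differences are TMM-scaled, the latter with a prior count of 2. Rapamycin was compared with control without a block, and with the replicate number as a block. The numbers were taken as pairs because in the m6A libraries they mark the cell line. Across genes, the difference between the numbers was alike with rapamycin and in controls (r = 0.901 over 15826 genes, which are not independent), whereas the RNA-seq labels give another cell line to each treatment. Both fits were also run on simulated counts, and the outcome is not reported here.

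The 10 genes and the gene lists were chosen with earlier results of these data known. Named from each list were up to 2 genes per direction with the largest change past the threshold with the block, among those whose mean log2 CPM was 1 or more. Further genes are marked as named after their values were seen, as were ODC1, FBXW7, SRF and MMP1. Peaks were counted as overlapping from 1 base on the same strand, in Python 3.11.15. The alternatives were DESeq2 1.42.0, other scaling and filters, each library left out, and stricter peak rules. Read depth of the m6A libraries is unknown. Peak sequences were not analysed here. 1 marker gene is not reported here.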

Additional observations from a re-analysis of the deposited data

Results flagged for a closer look

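In the 3′ UTR of JUN, the m6A peak shared by all 4 lists had a log2 ratio of fold enrichment, rapamycin over control, of −0.99 in HSC3 and 1.40 in CAL33, opposite in sign between the lines. In the 3′ UTR of JUNB the ratios were −0.71 in HSC3 and 1.82 in CAL33, but the control peaks behind them shared 1 base between the lines, while the CAL33 rapamycin peak covered 180 bases of the HSC3 control peak and 91 of the HSC3 rapamycin peak. Each ratio comes from 1 pair of lists, and the difference between the lines was not tested.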

How the results depend on the processing

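Without a replicate block, edgeR called 0 genes in all and 0 of the 10 factors, also with other scaling, with other filters and with each library left out. With the replicate block it called 1290 genes (736 higher) and 4 factors, and DESeq2 called 42 genes and 1 factor (JUNB) without the block and 818 and 4 with it. Chosen after seeing the data, the block was also run without a filter (1606 genes, 4 factors), with upper-quartile scaling (1165 genes, 805 of them higher, 4 factors) and with at least 10 counts in every library (1236 genes, 4 factors). FOSL1 turned negative in each blocked fit, with a log2 fold change of −0.29 in edgeR and −0.29 in DESeq2, −0.33 without a filter, −0.22 with upper-quartile scaling and −0.27 with 10 counts. With each library left out, 7 of the 10 factors kept their direction: the log2 fold change ran from 0.50 to 1.79 for MYC, 0.92 to 2.49 for FOS, 1.44 to 1.75 for FOSB, 1.48 to 1.94 for JUNB, 0.35 to 1.08 for FOSL2, 0.04 to 0.67 for JUND and 1.29 to 3.21 for EGR1. It changed sign for FOSL1 (−3.98 to 3.22), JUN (−0.13 to 1.26) and MAX (−0.12 to 0.16). A group left with 1 library is assumed there to vary like the other. The numbers are then unbalanced between the groups, so these values mix treatment and number. How much of each change comes from the number was not tested.

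Among the other lists, DESeq2 without the block called 2 MYC targets, 1 heat shock gene and 1 other AP-1 protein. DESeq2 with the block called 0 of the kinases, 0 of the SRF, TCF and EGR genes, 1 ERK output gene, 1 partner of MYC and MAX, 2 AP-1 targets, 11 MYC targets and 12 immediate-early genes. No kinase was called with the block and no filter, and no SRF, TCF or EGR gene with the block and at least 10 counts. When a library is left out, the numbers are again unbalanced between the groups. In the fit without the block and with each library left out, the median log2 fold change of the list ran from 0.37 to 1.38 for immediate-early genes, 0.25 to 1.54 for other AP-1 proteins, 0.36 to 0.68 for MYC and MAX partners, −1.60 to −0.62 for MYC targets, 0.03 to 0.47 for SRF, TCF and EGR genes and −1.04 to −0.20 for heat shock genes. It ran from −0.25 to −0.03 for kinases and from −0.39 to −0.27 for AU-rich element binding proteins. It changed sign for protein turnover genes (−0.27 without control 1, 0.00062 without control 2), ERK output genes (−0.47 without rapamycin 1, −0.24 without control 2, up to 1.64 without control 1) and for AP-1 targets (−1.06 without rapamycin 1, −0.17 without control 2, up to 2.04 without control 1).

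The peaks on the 10 genes numbered 11, 11, 12 and 13 at a false discovery rate of at most 0.05 and 11, 11, 9 and 12 at a fold enrichment of at least 4, in the order of HSC3 control, HSC3 rapamycin, CAL33 control and CAL33 rapamycin. The 2 libraries per group and the unknown depth of the m6A libraries limit all of these values. When an overlap had to cover 50% of the shorter peak, 6 and not 7 of the 11 control peaks on the 10 genes in HSC3 overlapped a rapamycin peak. In CAL33, 6 of 12 did under either rule. Over all peaks, overlaps from 1 base gave 1110 pairs for 3930 control peaks in HSC3 and 909 pairs for 3625 in CAL33.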

Other observations

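Genes with the pattern most like that of a factor were sought among 12173 genes, by the Euclidean distance of centred log2 CPM over the 4 libraries. Nearest to MYC were PSAT1, an enzyme of serine synthesis (distance 0.125), TFCP2L1 (0.163) and SLC1A4, a transporter of small neutral amino acids (0.183). PSAT1 was at 743 and 316 CPM with rapamycin and at 218 and 205 in controls. Nearest to FOS were HID1 (0.246), IFT140 (0.257) and KLF4 (0.265). Nearest to JUN were SUSD2 (0.0536), ATP2C2-AS1 (0.0806) and SHANK3 (0.104). With 4 libraries, many genes share a pattern, and these distances are a description.

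An m6A peak in all 4 lists was also held by IER2, IER3, IER5, MCL1 and TRIB1 among the 20 other immediate-early genes (25.0%), and by none of the 21 MYC target genes, against 3.61% of all genes tested. The share was 33.3% of the 6 heat shock genes (HSPA1A and HSPA1B, near-identical copies that share reads) and 16.7% of the 12 ERK output genes. It ran from 7.14% to 14.3% in the remaining lists, markers apart. Differences between lists were not tested.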
